A study of Mus musculus with 12 samples.

Results

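The hnRNP and SR splicing proteins were represented by 53 array probes of 29 genes, out of 41174 probes for mouse transcripts. The members were every probe whose transcript accession belongs to a gene named Hnrnp followed by a letter (35 probes of 19 genes) or Srsf followed by a number (18 probes of 10 genes), without pseudogenes. The RefSeq table used here lists 31 such genes, and Hnrnpul2 and Srsf11 had no probe. RNA came from 3T3-L1 cells, a mouse preadipocyte line that becomes adipocyte-like after a hormone mixture. Cells were harvested either at 0 h, without hormones, or 6 h after addition of 0.5 mM isobutylmethylxanthine, 1 µM dexamethasone and 5 µg/ml insulin. By the paper's methods, cells were grown in newborn bovine serum, and the hormones came in medium with fetal bovine serum. The times thus differed in serum and medium as well as in hormones, and these cannot be told apart. Each lysate was spread over a sucrose gradient in the presence of cycloheximide, which holds ribosomes on their messages. The non-polysomal pool was made of gradient fractions 5 to 7, and the polysomal pool of fractions 9 to 11. Each of the 4 groups (0 h non-polysomal, 0 h polysomal, 6 h non-polysomal, 6 h polysomal) had 3 arrays from 3 biological replicates.

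hnRNP proteins (heterogeneous nuclear ribonucleoproteins) coat nascent transcripts and often repress the use of nearby splice sites, and many of them also act on export, stability and translation of mRNA. SR proteins carry a domain rich in serine and arginine, bind exonic enhancers and promote splice site use, frequently against hnRNP A1. Both families control their own transcripts by alternative splicing. The mRNA of hnRNP A1 is one of the few outside the translation machinery that is classed as a TOP mRNA, a message with a 5′ terminal oligopyrimidine tract whose loading onto ribosomes follows growth signals. The TOP class otherwise holds mainly ribosomal proteins and elongation factors. The members thus allow Hnrnpa1 to be set against functionally related genes of another class.

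A TOP message starts at a C followed by an unbroken row of pyrimidines. Windows around annotated starts are therefore shown for Hnrnpa1, for a pair of ribosomal protein genes and for Hnrnpa3, Hnrnpa0 and Srsf5. These 3 members were picked from those whose window holds the run marked below. Hnrnpa3 changed with time by accession, and Hnrnpa0 and Srsf5 were among the genes nearest to Hnrnpa1 in pattern over the groups. Srsf10, also among the nearest, held no run in its window. Each window runs 5′ to 3′ from 10 bases before the start that RefSeq annotates and is 30 bases long (build GRCm38.p6), and capitals mark a C followed by at least 6 bases that are all C or T, searched on the transcribed strand only.
Hnrnpa1, chr15:103240387-103240416, plus strand: agagcgaggaggcgggataaaagggcgagc
Rps18, chr17:33955646-33955675, minus strand: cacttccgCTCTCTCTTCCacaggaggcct
Rpl27a, chr7:109519185-109519214, plus strand: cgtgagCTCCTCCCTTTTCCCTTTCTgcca
Hnrnpa3, chr2:75659249-75659278, plus strand: gactggccccgCCTCTTCCTCTCggtccca
Hnrnpa0, chr13:58128537-58128566, minus strand: cttcagcggCCTCTTTgtgtggtgtcccga
Srsf5, chr12:80945489-80945518, plus strand: caggacgtCCCTTCCattttgtgcaacgtc
Of the 29 genes, 28 had at least 1 window, and the run was found in 7 of their 39 windows (17.9%), which belong to Hnrnpa0, Hnrnpa3, Hnrnpf, Hnrnph1, Srsf5 and Srsf7. It was found in 13.5% of all 32851 windows and in 40.8% of the 76 windows of ribosomal protein genes. The Hnrnpa1 window held no such run. An annotated start need not be the start used in these cells, and no start was measured here.

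Signals are given as log2 intensity after removal of an array-wide offset read from 10 spike-in transcripts, on a scale in which 1 unit is 2-fold. The M-value of a probe is its polysomal minus non-polysomal difference at 6 h less the same difference at 0 h, so it also equals the change with time in the polysomal pool less that in the non-polysomal pool. A probe is said to have risen or fallen where limma's adjusted p was below 0.05, and is called where the difference was in addition over 2-fold. Of the members, 51 probes were well above background on all 12 arrays. The exceptions were the Srsf12 probe (1 array) and Srsf10 probe A_51_P519592 (6 arrays). No probe was saturated. All 10 listed preadipocyte or fibroblast marker genes were well above background on every array and 3 of 4 endothelial marker genes on none, while 4 of 6 mature adipocyte genes were above background on every array, as were 2 of 5 macrophage and leukocyte, 2 of 4 epithelial and 2 of 4 skeletal muscle genes.

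The spike-in offset lay between -0.48 and -0.21 on the 6 h polysomal arrays and between 0.05 and 0.17 on the other 9. Removing it therefore raised every probe of the 6 h polysomal group, and the median M-value of all probes was 0.49. With each array set to its 75th percentile instead, that median was 0.06. The share of calls that were positive fell from 90.2% to 51.9%. Medians of the families are therefore set beside that of all probes, and single polysomal changes are to be read against an all-probe median of 0.54 on this scale. Fewer messages of a gene and less loading of each message cannot be told apart in a single pool, and the M-value compares the pools within a time.

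Hnrnpa1 had the highest M-value of the member genes and was not enriched in polysomes at 0 h, which it shared with few other members. All 3 of its probes behaved alike. On probe A_51_P400784 the log2 signals were 13.58, 13.53 and 13.45 in the 0 h non-polysomal arrays and 13.23, 13.79 and 13.58 in the 0 h polysomal arrays, in the order of the replicates. They were 12.27, 12.08 and 12.17 in the 6 h non-polysomal and 14.61, 14.61 and 14.74 in the 6 h polysomal arrays. The pools overlapped at 0 h and were fully apart at 6 h, with the non-polysomal pool below and the polysomal pool above its level at 0 h.

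On probe A_52_P637440 the signals were 9.55, 9.43 and 9.36 (0 h non-polysomal), 9.35, 9.58 and 9.62 (0 h polysomal), 8.35, 8.24 and 8.22 (6 h non-polysomal) and 10.79, 10.74 and 10.86 (6 h polysomal). On probe A_51_P296940 they were 6.66, 6.98 and 6.87, then 6.82, 7.06 and 6.76, then 5.47, 5.44 and 5.34, and finally 7.80, 7.80 and 7.84 in the same order of groups. Both probes repeated the overlap at 0 h and the separation at 6 h.

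The M-values of Hnrnpa1 were 2.47 ± 0.18, 2.46 ± 0.13 and 2.34 ± 0.15 (estimate ± SE, 3 arrays a group, limma adjusted p of 1.03e-05, 1.7e-06 and 4.37e-06). In the polysomal pool the mRNA rose by 1.12, 1.28 and 0.93 in log2, or 2.18-, 2.43- and 1.90-fold. The rise on probe A_51_P400784 went under 2-fold (0.97 in log2) without the first 0h_polysomal replicate. In the non-polysomal pool it fell by 1.35, 1.18 and 1.42, or 2.54-, 2.26- and 2.67-fold. The polysomal minus non-polysomal difference went from 0.01, 0.07 and 0.05 at 0 h to 2.48, 2.53 and 2.39 at 6 h. The rise in the polysomal pool and the fall in the non-polysomal pool kept their directions under every scaling tried, although with quantile normalization the rise on probe A_51_P400784 was 0.14 and did not pass the test (adjusted p = 0.246). Both 2-fold calls of the polysomal rise ended with the 75th percentile (0.64, 0.79 and 0.44 on the 3 probes) and with quantile normalization. The difference at 0 h did not keep its direction: it was -0.88, -0.82 and -0.84 with the 75th percentile and -0.47, -0.85 and -0.74 with quantile normalization. Its place against the other members is therefore given next.

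**Figure D1:**
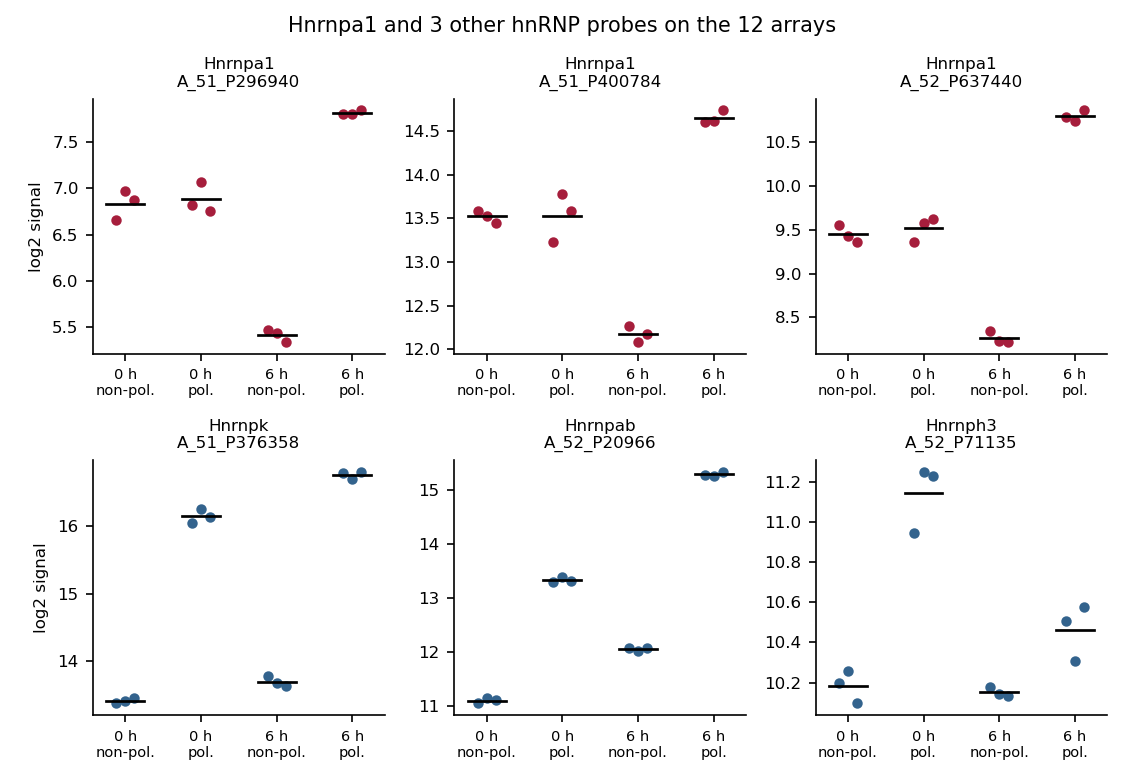
Log2 signal after spike-in scaling (vertical axis, its range set for each panel) in the 4 groups for the 3 Hnrnpa1 probes (top) and for 1 probe each of Hnrnpk, Hnrnpab and Hnrnph3 (bottom). Points are single arrays and bars the mean of 3. For Hnrnpa1 the pools overlap at 0 h and lie 2.39 to 2.53 apart at 6 h, while Hnrnpk and Hnrnpab are already apart at 0 h and Hnrnph3 moves down in the polysomal pool.

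As the mean of its probes, Hnrnpa1 had an M-value of 2.42 (5.36-fold), against a median of 0.67 over the other 28 genes, none of which was higher. The gap between Hnrnpa1 and that median was 1.74, 1.93 and 1.86 within the 3 slides, each of which held 1 array of each group with the same replicate number. It ranged from 1.42 to 1.90 over the other scalings and background corrections. At 0 h its polysomal minus non-polysomal difference was 0.04 against a median of 1.80, with 25 of the 28 genes higher. Srsf12, among those not higher (-0.68), was above background on 1 array only. At 6 h the Hnrnpa1 difference was 2.47 against 2.51, with 16 of the 28 higher. At 6 h Hnrnpa1 thus lay in the middle of the members, having been near their lower end at 0 h.

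Its change in the non-polysomal pool, -1.31 against a median of 0.15, was the lowest of all 29 genes. The polysomal change of 1.11, by contrast, was near the median of 0.83 and 9 genes rose by more. The 3 genes whose 4 group means, each centred on its own mean, lay nearest those of Hnrnpa1 were Srsf5 (mean absolute difference over the 4 groups of 0.37), Hnrnpa0 (0.38) and Srsf10 (0.39), all with M-values under 1 when their probes were averaged. The Srsf10 mean includes the dim probe A_51_P519592, and Srsf10 probe A_52_P250968 alone had an M-value of 1.16. Hnrnpa0 is a close relative of hnRNP A1, and Srsf5 is an SR protein known for its control by growth factors. Among 13 other listed TOP mRNAs, which include elongation factors, poly(A)-binding protein and nucleophosmin, 12 had probes. The median M-value of those 21 probes was 2.06 and 19 were called higher. Their median difference at 0 h was -1.29, so that most lay toward the non-polysomal pool where Hnrnpa1 was even. For the 82 listed ribosomal protein genes (118 probes) the medians were 1.74 and -1.34, and 106 probes were called higher in M-value.

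**Figure D2:**
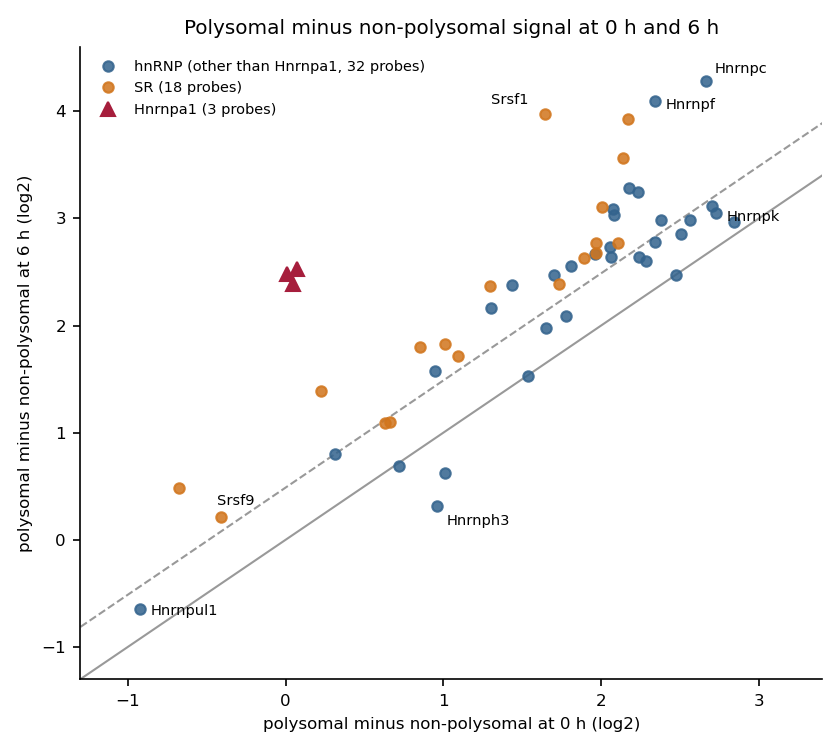
Polysomal minus non-polysomal log2 signal at 0 h (horizontal) and at 6 h (vertical) for the 53 probes, each point the difference between means of 3 arrays. The solid line marks equal values and the dashed line the median M-value of all probes (0.49). The 3 Hnrnpa1 probes lie near 0 at 0 h and between 2.39 and 2.53 at 6 h, apart from the band formed by most members. Srsf1 probe A_52_P525674 (1.64 at 0 h and 3.97 at 6 h) lies about as far above the solid line.

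On the spike-in scale most probes of both families were brighter in the polysomal pool at 0 h. The paper gives the spike-in amount for a mass of test RNA. A difference between the pools is therefore not the share of a message held in polysomes. Of the 53 probes, 38 were called higher in the polysomal pool (27 of 35 hnRNP and 11 of 18 SR) and 0 lower. Of all probes, 27.4% were called higher and 9.81% lower. Of probes above background on every array 46.5% were called higher, and their median was 0.88. The median difference was 2.06 for hnRNP and 1.47 for SR probes. At 6 h, 46 of the 53 were called higher (30 hnRNP and 16 SR) and 0 lower, where 37.4% of all probes were called higher and 6.41% lower, and 59% of those above background higher. The medians were then 2.60 and 2.38, beside 1.32 for probes above background on every array. With the 75th percentile the counts called higher were 26 at 0 h and 35 at 6 h, where 11.6% and 12.3% of all probes were. Called lower were 2 and 3, where 10979 and 9131 of all probes were. Of the 18 SR probes 7 were called higher at 0 h under that scaling, and 8 with quantile normalization (16.9% of all probes). Under these settings both family medians stayed above that of all probes at either time.

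Several hnRNP messages were near the top of this range at 0 h. Hnrnpm, which couples to the spliceosome, had a difference of 2.84. Hnrnpk, a poly(C)-binding regulator of transcription and translation, had 2.73 and 2.34 on its probes. Hnrnpa2b1, which binds RNA transport signals, had 2.70. Hnrnpu, the scaffold attachment factor A that holds RNA on chromatin, had 2.51 and 2.24, and Hnrnpr had 2.56. Hnrnpc probe A_52_P218537 had 2.67, with an M-value of 1.61 described below. Those named before it had M-values between 0.13 and 0.44, below the all-probe median of 0.49. On this scale the pools of these 5 genes moved apart by less than those of the median probe.

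At the other end stood Hnrnpul1 and Srsf9. Hnrnpul1 probe A_52_P573366 had signals of 5.85, 6.03 and 5.83 in the 0 h non-polysomal and 4.89, 5.00 and 5.06 in the 0 h polysomal arrays, a difference of -0.92. At 6 h it had 6.09, 6.09 and 6.00 against 5.55, 5.23 and 5.46, so that the polysomal arrays stayed below. Its second probe, A_52_P243307, for another accession, had 5.96, 5.79 and 5.81 against 6.00, 6.30 and 6.21, a difference of 0.32 that was negative with the 75th percentile (-0.57) and quantile normalization (-0.26). At 6 h the second probe had 5.24, 5.07 and 5.31 against 5.94, 6.02 and 6.07. The gap of 1.24 between these probes at 0 h was called (adjusted p = 7.08e-06), where 8.14% of all 6143 pairs of probes of 1 gene were called in this difference.

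Srsf9, an SR protein active in splicing repression and exon choice, was brighter in the non-polysomal pool at 0 h (13.26, 13.27 and 13.32 against 12.70, 13.02 and 12.90). At 6 h its pools overlapped (14.12, 14.11 and 14.03 against 14.35, 14.10 and 14.45), since both rose, by 1.43 in the polysomal and 0.80 in the non-polysomal pool.

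In M-value, 14 of the 53 probes were called higher (8 hnRNP probes of 4 genes and 6 SR probes of 4 genes) and 0 lower. Among all probes 12.1% were called higher and 1.31% lower, and among probes above background on every array, as 51 of the members are, 17.6% and 1.22%. Without Hnrnpa1, 5 of 32 hnRNP probes (15.6%) were called, close to either share, against 6 of 18 SR probes (33.3%). By the adjusted p alone, 41 members were higher and 2 lower, beside 32.1% and 3.98% of all probes and 53.7% and 6.29% of those above background. The median M-value was 0.57 for hnRNP probes, 0.46 without Hnrnpa1 and 0.81 for SR probes. Within the 3 slides the hnRNP median was 0.65, 0.55 and 0.52 and the SR median 1.05, 0.60 and 0.77, so the SR median was the higher in each. Relative to the all-probe median the hnRNP family lay at 0.08 and the SR family at 0.32. These were -0.11 and 0.23 with quantile normalization, -0.36 and -0.12 with a line through the spike-ins, and -2.39 and -1.66 with normexp background correction on all spots, so the place of either family against all probes depended on the processing. With the 75th percentile 8 members were called higher, 3 of them SR probes and 3 Hnrnpa1, where 3.75% of all probes were. Hnrnph3 was called lower under that scaling (-1.07), as were 1431 of all probes.

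**Figure D3:**
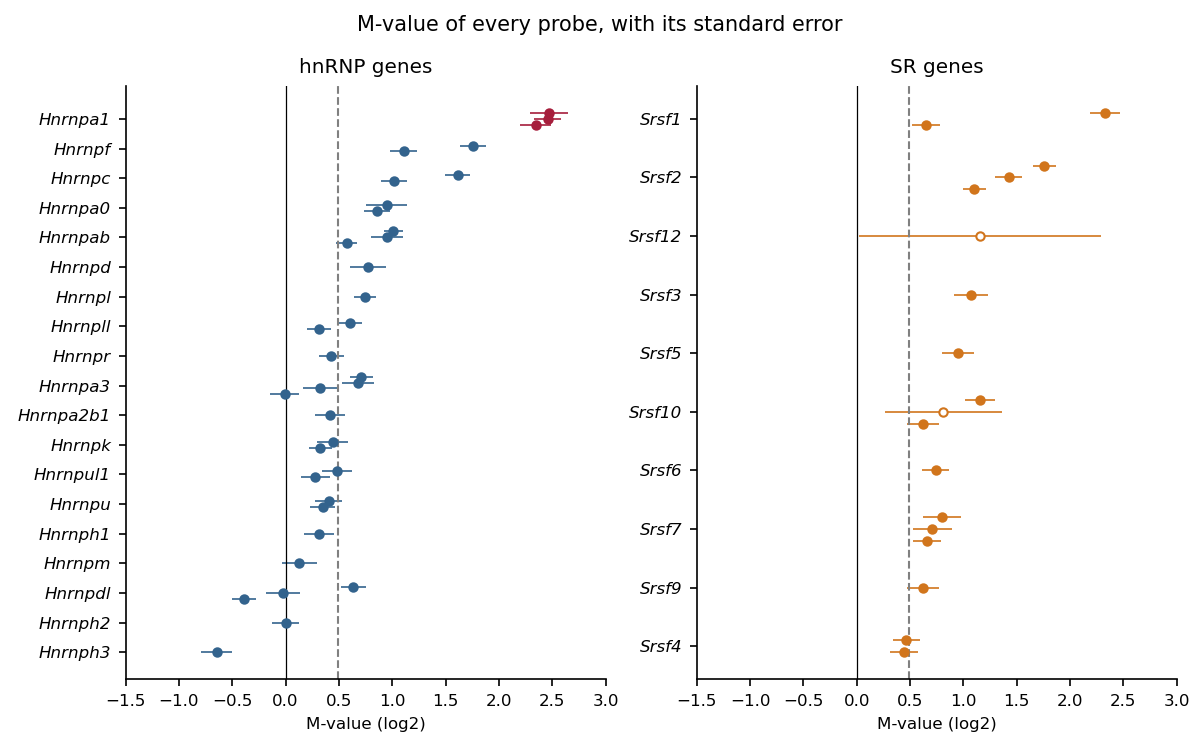
M-value (log2) with its standard error for each probe of the 19 hnRNP (left) and 10 SR genes (right), ordered by gene mean. Open circles mark probes not well above background on all 12 arrays, and the dashed line is the all-probe median of 0.49. Hnrnpa1 leads the hnRNP genes with 3 close probes, and the Srsf1 probes lie 1.68 apart.

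Among hnRNP genes other than Hnrnpa1 the highest M-values on a single probe belonged to Hnrnpf, Hnrnpc and Hnrnpab. By the mean of a gene's probes Hnrnpa0 (0.90) lay above Hnrnpab (0.84). Hnrnpf, which binds G-rich sequence, had signals on probe A_52_P141161 of 6.90, 6.94 and 6.82 (0 h non-polysomal), 9.16, 9.25 and 9.27 (0 h polysomal), 7.47, 7.36 and 7.28 (6 h non-polysomal) and 11.60, 11.35 and 11.45 (6 h polysomal), for an M-value of 1.76 ± 0.12. The polysomal pool rose 4.72-fold and the non-polysomal pool 1.40-fold.

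Hnrnpc, the classical packaging protein of nascent transcripts, had signals on probe A_52_P218537 of 9.06, 9.09 and 8.96, then 11.55, 11.79 and 11.76, then 9.28, 9.22 and 9.16, and finally 13.53, 13.42 and 13.54 in the same order. Its M-value was 1.61 ± 0.12 and its polysomal rise 3.47-fold, while the non-polysomal change of 0.18 did not pass the test (adjusted p = 0.128). The second Hnrnpc probe had an M-value of 1.02, which fell under 1 without any of 4 arrays (to 0.94 at the lowest): 0h_nonpolysomal replicate 2, 0h_polysomal replicate 1, 6h_nonpolysomal replicate 3 or 6h_polysomal replicate 3.

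Hnrnpab, which binds AU-rich RNA and single-stranded DNA, rose in both pools. On probe A_52_P20966 the non-polysomal signals went from 11.04, 11.14 and 11.10 to 12.07, 12.01 and 12.06 and the polysomal ones from 13.28, 13.39 and 13.32 to 15.27, 15.26 and 15.33. The polysomal rise was 3.89-fold and the non-polysomal rise 1.93-fold. Its M-value of 1.01 ± 0.09 went under 1 without 0h_nonpolysomal replicate 2, 0h_polysomal replicate 1, 6h_nonpolysomal replicate 2 or 6h_polysomal replicate 3 (0.98 at the lowest). The bright probe A_51_P205953 went from 14.39, 14.45 and 14.32 to 15.39, 15.27 and 15.34 in the non-polysomal pool and from 16.35, 16.54 and 16.46 to 17.97, 17.95 and 17.98 in the polysomal pool. Its polysomal rise of 1.52 and M-value of 0.57 were the lowest of the gene, and probe A_52_P313080 had 1.71 and 0.95.

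Hnrnph3 had the lowest M-value of all members, -0.64 ± 0.15 (adjusted p = 0.00659). Its non-polysomal signals stayed together (10.20, 10.26 and 10.10 at 0 h, 10.18, 10.14 and 10.13 at 6 h). Its polysomal signals were 10.95, 11.25 and 11.23 at 0 h and 10.51, 10.31 and 10.58 at 6 h, without overlap, a fall of 1.60-fold against a rise of 0.54 in the all-probe median. Its relatives differed from it: Hnrnph1 rose in both pools by 1.18 and 0.87, and Hnrnph2 had a change of 0.37 in each and an M-value of -0.00. These proteins bind runs of G, as Hnrnpf does, and the M-values of the 4 genes ran from the lowest to the second highest among hnRNP genes.

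Among SR genes the highest M-value was that of Srsf1, the prototype SR protein (SF2/ASF), on probe A_52_P525674. Its signals were 5.95, 6.25 and 5.91 (0 h non-polysomal), 7.55, 7.77 and 7.73 (0 h polysomal), 5.93, 5.98 and 6.02 (6 h non-polysomal) and 9.94, 9.91 and 10.01 (6 h polysomal). The non-polysomal pools overlapped, and the polysomal pool rose 4.82-fold, for an M-value of 2.33 ± 0.14 (adjusted p = 3.85e-06).

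Srsf2 (SC35), a marker of nuclear speckles, had the largest polysomal rise of all members. Its 3 probes rose 5.30-, 6.21- and 5.85-fold in the polysomal pool and 2.46-, 2.31- and 1.73-fold in the non-polysomal pool, with M-values of 1.10, 1.42 and 1.76. On probe A_52_P8043 the signals were 8.31, 8.22 and 8.10, then 10.21, 10.42 and 10.41, then 9.37, 9.41 and 9.48, and finally 13.05, 12.88 and 13.01 in the order of groups used above. No 2 groups overlapped on this probe. Probe A_52_P482355 had 7.69, 7.68 and 7.68, then 9.72, 9.99 and 9.83, then 8.50, 8.42 and 8.49, and finally 12.41, 12.35 and 12.43. Probe A_51_P262432 had 9.96, 9.95 and 9.85, then 11.81, 11.97 and 11.99, then 11.28, 11.18 and 11.20, and finally 14.37, 14.26 and 14.35. The order of the groups was the same on all 3 probes, with the 6 h polysomal arrays on top and the 0 h non-polysomal arrays at the bottom.

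Srsf3, which couples splicing to export, had an M-value of 1.07 that dropped to 0.95 without the first 0h_polysomal replicate. On Srsf10 probe A_52_P250968 (a splicing repressor in stress) the 0 h pools overlapped (9.06, 9.24 and 8.92 against 9.23, 9.30 and 9.36) and the 6 h pools did not (9.07, 9.08 and 8.85 against 10.39, 10.32 and 10.44), for an M-value of 1.16 ± 0.14. The dim Srsf10 probe A_51_P519592 was not well above background on any 6 h non-polysomal array. Its 6 h polysomal mean lay 2.26-fold above the detection floor of those arrays, a value that carries no sampling error. The limma fit gave a 6 h difference of 1.82 (adjusted p = 0.00202, lower confidence limit 0.95), beside an all-probe median of 0.68. Srsf12 was not well above background on 11 of 12 arrays and gives no fold. Srsf10 probe A_52_P478532, for another accession, had 6.99, 6.96 and 6.94 (0 h non-polysomal), 7.82, 8.18 and 8.17 (0 h polysomal), 7.07, 7.10 and 7.01 (6 h non-polysomal) and 8.68, 8.73 and 8.90 (6 h polysomal), for an M-value of 0.62. The lowest SR value was 0.44, on Srsf4 probe A_52_P550780, whose signals were 7.66, 7.91 and 7.84, then 8.30, 8.56 and 8.52, then 8.34, 8.38 and 8.35, and finally 9.44, 9.39 and 9.55. Srsf4 rose in both pools, by 1.00 and 0.55. No SR probe had a negative M-value, although with quantile normalization Srsf1 probe A_51_P485899 was at -0.07.

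From 0 h to 6 h in the polysomal pool, 23 of 53 members were called higher (12 hnRNP and 11 SR probes) and 1 lower, where 19.2% and 5.01% of all probes and 28.6% and 6.02% of those above background were. The median change was 0.61 for hnRNP and 1.26 for SR probes, beside 0.54 for all probes. The SR median exceeded the hnRNP median on each slide (1.65 against 0.73, 1.05 against 0.43, and 1.13 against 0.67). With the 75th percentile 12 members were called higher and 2 lower, where 8.7% of all probes were called higher and 4073 probes lower. With quantile normalization 9 and 5 members were, beside 7.78% of all probes higher and 3843 probes lower. By the adjusted p alone 16 of 18 SR probes rose. Beside Srsf2 and 1 probe of Srsf1, those called were Srsf7 (1.45 to 1.79 over 3 probes), Srsf6 (1.66), Srsf9 (1.43), Srsf10 probe A_52_P250968 (1.09) and Srsf3 (1.07, and 0.95 without 0h_polysomal replicate 1).

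In the non-polysomal pool, 3 members were called higher (Srsf2 on 2 probes and Srsf7 on 1) and 5 lower (Hnrnpa1 on 3 probes and Hnrnpa3 on 2), where 8.09% and 8.14% of all probes and 12.4% and 10.7% of those above background were called. The median change was 0.08 for hnRNP and 0.48 for SR probes, beside 0.04 for all probes. The SR median was the higher on each slide (0.58 against 0.11, 0.48 against 0.06, and 0.53 against 0.09). SR probes thus had the higher median in both pools.

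**Figure D4:**
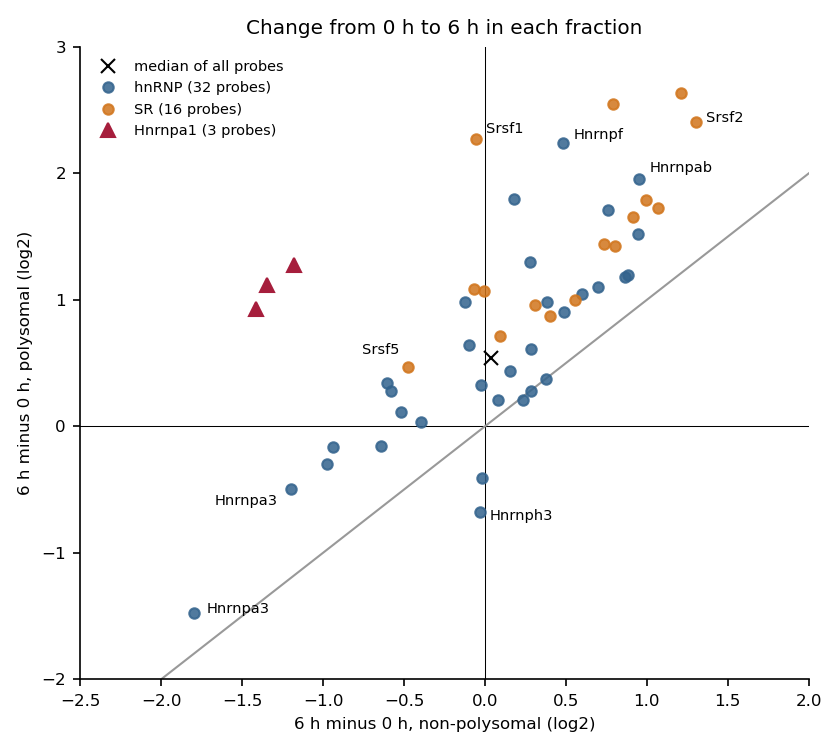
Change from 0 h to 6 h in log2 in the non-polysomal (horizontal) and polysomal pool (vertical) for the 51 member probes above background on all arrays, from means of 3 arrays a group. The line marks equal change, so the height above it is the M-value, and the cross is the median of all probes (0.04 and 0.54). Hnrnpa1 lies upper left, most SR probes upper right, and the lowest point is an Hnrnpa3 probe.

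Opposite changes that both passed the test were found on 5 probes: the 3 of Hnrnpa1, Srsf5 and 1 of Hnrnpa0. Of all probes 50.6% rose in the polysomal pool and 19.7% fell in the non-polysomal pool by the adjusted p. The share with both was not computed, so the count is not read as a trait of the members. For Srsf5 the polysomal signals were 9.10, 9.30 and 9.24 at 0 h and 9.61, 9.69 and 9.74 at 6 h, and the non-polysomal ones 8.40, 8.43 and 8.24 against 8.01, 7.95 and 7.68, so neither pool overlapped between times. The changes were 0.47 and -0.48, and the first was -0.01 with the 75th percentile and -0.02 with quantile normalization. For Hnrnpa0 probe A_51_P517423 the changes were 0.28 and -0.58, and the first was -0.21 and -0.31 under those settings. Of these 3 genes, Hnrnpa1 was therefore the only one whose polysomal change was positive under each scaling tried. Hnrnpd (AUF1), which targets AU-rich mRNAs for decay, fell by 0.94 in the non-polysomal pool while its polysomal change of -0.16 did not pass the test (adjusted p = 0.267).

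Beside limits on the M-value and its adjusted p, the study asked of an upregulated mRNA 4 directions of group means: polysomal at 6 h above polysomal at 0 h and above non-polysomal at 6 h, non-polysomal at 6 h below non-polysomal at 0 h, and polysomal below non-polysomal at 0 h. The directions alone are counted here. All 4 were met by 0 members with the spike-in offset, where 13.3% of all probes and 5.66% of those above background on every array met them. With the 75th percentile, quantile normalization and the line through the spike-ins all 3 Hnrnpa1 probes met them, where 3.74%, 7.82% and 31.6% of all probes did. With the deposited log2 values 0 Hnrnpa1 probes did, beside 26.8% of all probes. An Srsf10 probe also met them with the 75th percentile and quantile normalization, and the dim Srsf12 probe with the line and the deposited values. With the spike-in offset the first 3 directions were met by 10 hnRNP (28.6%) and 5 SR probes (27.8%). Of all probes 26.2% met these, and of those above background 23.2%. The Hnrnpa1 probes met the first 3 directions under each of the 5 scalings.

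Different probes of 1 gene could be compared for 31 pairs in 16 member genes. In M-value 2 pairs were called (4.23% of all pairs were), in polysomal change 4 (10.6%) and in non-polysomal change 3 (8.45%). The 3 Hnrnpa1 probes gave no called pair in any of these.

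The largest gap in M-value was in Srsf1. Probe A_51_P485899, for NM_001078167, had signals of 10.72, 10.85 and 10.74 (0 h non-polysomal), 12.31, 12.64 and 12.57 (0 h polysomal), 11.07, 11.11 and 11.05 (6 h non-polysomal) and 13.38, 13.43 and 13.57 (6 h polysomal), for an M-value of 0.65 and a polysomal rise of 1.94-fold. The probe for NM_173374, given above, had 2.33 and 4.82-fold. The M-values thus differed by 1.68 ± 0.10 (adjusted p = 1.59e-06). The same difference, coded as this probe minus the other, ranged from -2.69 to -1.41 over the alternatives run and did not pass the test with normexp on all spots (adjusted p = 0.156). At 0 h the probes were close, with polysomal minus non-polysomal differences of 1.73 and 1.64.

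Hnrnpa3, a relative of hnRNP A1 and A2, split by accession in its change with time in the non-polysomal pool. The 3 probes for NM_146130 fell in the non-polysomal pool by 1.80, 1.20 and 0.98, and in the polysomal pool by 1.48, 0.49 and 0.30. On the first of these, A_51_P443482, the non-polysomal signals went from 9.32, 9.26 and 9.22 to 7.52, 7.48 and 7.41 and the polysomal ones from 10.73, 11.02 and 11.00 to 9.31, 9.35 and 9.66, without overlap in either pool. This probe carried the only called polysomal fall among the members, 2.78-fold. Probe A_51_P272617 went from 13.59, 13.63 and 13.53 to 12.37, 12.41 and 12.37 and from 15.39, 15.64 and 15.60 to 15.02, 15.05 and 15.08. Probe A_52_P339966 went from 11.63, 11.64 and 11.53 to 10.70, 10.54 and 10.64 and from 13.48, 13.82 and 13.68 to 13.25, 13.32 and 13.51, where the polysomal arrays overlapped.

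The only probe for NM_198090, A_51_P222088, did not fall in the non-polysomal pool. It went from 9.18, 9.17 and 9.07 to 9.29, 9.47 and 9.52, a change of 0.28 (limma adjusted p = 0.0422). The probe did not pass this test in 14 of 25 alternatives (0.008 at the lowest). Its polysomal signals were 10.54, 10.80 and 10.69 at 0 h and 10.90, 10.88 and 11.09 at 6 h, a change of 0.28, below the all-probe median of 0.54, that was -0.21 with the 75th percentile. It differed from each of the other 3 by 1.26 to 2.08 in the non-polysomal pool, and these were the 3 called pairs. In the polysomal pool 1 of the same pairs was called (1.75), and so was a pair within NM_146130, A_51_P443482 against A_52_P339966 (-1.18, adjusted p = 5.23e-08). In M-value the cross-accession pairs differed by 0.33 to 0.72 and none was called.

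Hnrnpdl, whose protein is close to hnRNP D, had 3 probes for 1 accession with M-values of -0.39, -0.03 and 0.63. The outer 2 differed by 1.02 ± 0.08 (adjusted p = 8.12e-06), a gap under 2-fold with the deposited log2 values (-0.89 as A_51_P476091 minus A_52_P292693) and past the threshold no longer with normexp on all spots (adjusted p = 0.156). Probe A_51_P476091 had non-polysomal signals of 10.26, 10.39 and 10.34 at 0 h and 10.30, 10.33 and 10.31 at 6 h, and polysomal signals of 11.21, 11.47 and 11.34 and then 10.87, 10.92 and 11.01. Its polysomal pool fell 1.33-fold. Probe A_52_P292693 had 7.86, 7.97 and 7.84 and then 7.42, 7.37 and 7.34 in the non-polysomal pool, a fall of 1.43-fold, with polysomal signals that overlapped between times (8.71, 8.95 and 8.86 against 8.90, 8.91 and 9.05). The third probe, A_52_P283910, had 10.22, 10.10 and 10.05 and then 10.41, 10.39 and 10.28 in the non-polysomal pool, and 10.68, 10.98 and 10.88 and then 11.04, 10.87 and 11.24 in the polysomal pool. On it neither the polysomal change of 0.21 nor the non-polysomal change of 0.23 passed the test.

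Hnrnpf had 2 probes for 1 accession with polysomal rises of 2.24 and 0.98, a called gap of 1.26. On the second, A_51_P305997, the polysomal signals went from 15.34, 15.63 and 15.58 to 16.50, 16.44 and 16.57 while the non-polysomal ones, 13.37, 13.34 and 13.32 against 13.33, 13.20 and 13.13, had a change of -0.12 that did not pass the test (adjusted p = 0.369). With quantile normalization the polysomal change of this bright probe was -0.36. Where on a transcript each probe lies, and whether it also binds the copies and pseudogenes that Hnrnpa1 and Hnrnpa3 have in the genome, is not given in the sources used here and was not tested.

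**Figure D5:**
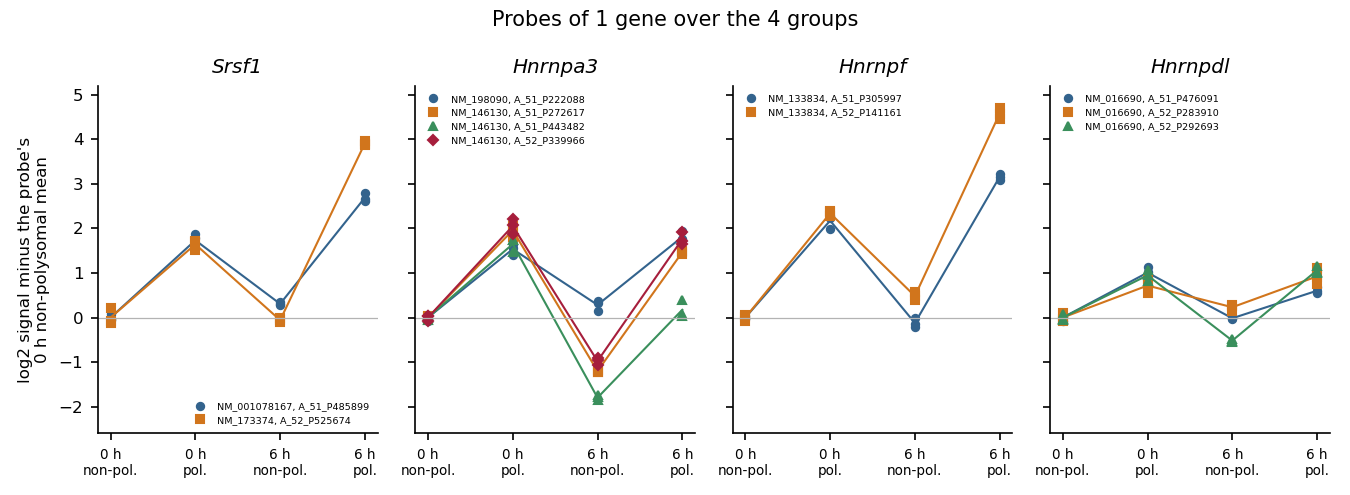
Log2 signal of each probe of Srsf1, Hnrnpa3, Hnrnpf and Hnrnpdl less that probe's own mean in the 0 h non-polysomal group, over the 4 groups. Points are single arrays and lines join group means. The Srsf1 probes lie within 0.37 of each other up to the 6 h non-polysomal group. Their changes from 0 h to 6 h within the polysomal pool differ by 1.31. The NM_198090 probe of Hnrnpa3 does not fall at 6 h in the non-polysomal pool, where the other 3 go down.

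Other splicing genes gave a frame for these values. In M-value 12.1% of all probes were called higher and 1.31% lower, beside 17.6% and 1.22% of those above background on every array. hnRNP proteins listed under other symbols had a median M-value of 0.53 and 10 of 31 probes called higher, with Rbm3, a cold-inducible RNA-binding protein, at the top (2.12). SR-related proteins had a median of 0.18 and 4 of 30 called higher. Tra2a, a partner of SR proteins at exonic enhancers, had 1.35. The kinases and import receptors of SR proteins had a median of 0.33, with 5 of 26 probes called higher and 2 lower. The 5 were probes of the kinases Clk1, Clk3 and Clk4, which release SR proteins from speckles. The higher calls among SR-related proteins and among kinases and import receptors lay near the shares given above. Core snRNP proteins had a median of 0.52, with 14 of 44 probes called higher and 4 lower. Snrpb2 reached 1.84, and both listed Prpf8 probes were called lower (-1.20 and -1.08). Against these lists the SR family median of 0.81 was the highest, and that of the hnRNP family without Hnrnpa1, 0.46, lay among them.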

How the data were processed

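The authors hybridised the RNA of each pool to 1-colour Agilent mouse arrays and deposited the scanner output of Feature Extraction 10.7.1.1. The deposited intensity used here is the background-subtracted processed signal, for which the file headers name build mm9. The authors also deposited log2 values after their own scaling, which served as an alternative. Spots flagged as outliers were dropped, the log2 signal was taken without a pseudocount, and each array's mean offset over 10 spike-in transcripts (32 spots each) was subtracted. All member probes were spotted once. Transcript accessions were named through RefSeq annotation, which matched 26690 of 41174 probes (64.8%).

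A model with 4 groups was fitted to all 12 arrays with limma 3.58.1 in R 4.3.3, and p-values were adjusted by Benjamini-Hochberg over all probes. Values with ± are estimates with standard errors from 3 arrays a group. Pairs of probes were tested on their within-array difference, over all 6143 pairs with both probes above background on every array. Scripts were tested on simulated data. Probes given by array were all those of Hnrnpa1, the extremes of each family in M-value and in each change with time, and genes with a called pair. The members and gene lists were chosen with earlier results of these data known.

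Alternatives were 75th percentile, quantile and spike-in line scaling, the deposited log2 values, normexp background correction (offset 50), filters on dim and outlier spots, a variance trend, a replicate block, gene means and removal of single arrays. The mean signal that normexp was planned for was not in the files, so the median signal was used. The number of arrays limits the precision.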

Additional observations from a re-analysis of the deposited data

Results flagged for a closer look

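The M-value tests whether the change with time differed between the pools, and the probes below were singled out because it was called, so that the polysomal and non-polysomal changes differed over 2-fold by limma's adjusted p. Hnrnpa1 had 2.47, 2.46 and 2.34 on its 3 probes. Among SR genes, Srsf1 probe A_52_P525674 had 2.33, the 3 Srsf2 probes had 1.76, 1.42 and 1.10, Srsf10 probe A_52_P250968 had 1.16 and Srsf3 had 1.07. Among other hnRNP genes, Hnrnpf had 1.76 and 1.11, Hnrnpc had 1.61 and 1.02, and Hnrnpab probe A_52_P20966 had 1.01. Srsf5 (0.95) and Hnrnpa0 probe A_51_P517423 (0.86) were added because they passed the test with opposite changes in the pools. All of these values include the all-probe median of 0.49, which was 0.06 with the 75th percentile.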

How the results depend on the processing

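The M-value of Hnrnpa1 stayed above the median of the other member genes, by 1.42 to 1.93 over all alternatives. Relative to the all-probe median it lay at -0.52 with normexp on all spots, and at 1.49 to 1.94 with the scalings and the other normexp fit. With the 75th percentile, M-value calls were 8 higher and 1 lower, the medians 0.15 (hnRNP) and 0.38 (SR), polysomal time calls 12 higher and 2 lower, and calls lower in polysomes 2 at 0 h and 3 at 6 h. With quantile normalization these were 6 and 1, -0.11 and 0.23, 9 and 5, and 2 and 2, and the all-probe median was -0.00075. Of all probes 3.75% (75th percentile) and 3.08% (quantile) were called higher in M-value, and 8.7% and 7.78% in the polysomal change. A line through the spike-ins gave 31 higher M-value calls, where 63% of all probes were called and the all-probe median was 1.41, medians of 1.05 and 1.29, a gap of Hnrnpa1 to the others of 1.90 and 1 call lower in polysomes at 0 h. The deposited log2 values gave a gap of 1.52 and 1 called pair. Normexp on all spots gave 1 higher M-value call (Hnrnpa1), where 0.245% of all probes were called and the all-probe median was 3.20, medians of 0.81 and 1.54, a family difference of 0.73, 0 polysomal time calls lower and 0 called pairs. Fitted without spots of non-uniform background, an alternative chosen after seeing the data, it gave a gap of 1.42, an hnRNP median of 0.49, a gap at 0 h of -1.67 and 1 called pair. With gene means, 6 of 29 genes were called higher in M-value. In the polysomal change 12 were called higher and 0 lower, and in the non-polysomal change 1 higher and 1 lower. In polysomes 20 were called higher at 0 h and 24 at 6 h. The hnRNP median was 0.43 and the family difference 0.48. Fewer features enter there and the share of all called was not computed, so these counts are not read as a trait of the members. Without single arrays or replicate numbers, the gap of Hnrnpa1 was 1.70 to 1.93, the family difference 0.10 to 0.43 (0.43 without replicate 2), and calls lower in polysomes at 0 h 0 to 1.

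Directions turned as follows, and apart from the scaling itself the cause was not tested. In the polysomal change, the 75th percentile gave -0.21 for Hnrnpa3 A_51_P222088, -0.21 for Hnrnpa0 A_51_P517423, -0.28 and -0.37 for Hnrnpdl A_52_P283910 and A_52_P292693, -0.013 for Srsf5 and -0.051 for Hnrnpul1 A_52_P573366. Quantile normalization gave -0.36, -0.31, -0.44, -0.34 and -0.019 for the first 5, and -0.36 for Hnrnpf A_51_P305997. In the difference at 0 h, the 75th percentile gave -0.88, -0.82 and -0.84 for Hnrnpa1, -0.57 for Hnrnpul1 A_52_P243307, -0.66 for Srsf10 A_52_P250968, -0.17 for Hnrnpdl A_52_P283910, -0.036 for Srsf5 and -0.23 for Srsf4 A_52_P550780, and quantile normalization -0.47, -0.85, -0.74, -0.26, -0.70, -0.14, -0.068 and -0.22. At 6 h, they gave -1.10 and -0.89 for Srsf9, -0.69 and -0.76 for Hnrnpdl A_51_P476091, -0.62 and -0.69 for A_52_P283910, -0.51 and -0.050 for Hnrnpul1 A_52_P243307, -0.21 and -0.22 for Srsf4 A_52_P550780, and -1.001 and -1.04 for Hnrnph3. In M-value, quantile normalization gave -0.20 for Hnrnpab A_51_P205953, -0.43 and -0.23 for Hnrnpa3 A_51_P272617 and A_52_P339966, and -0.073 for Srsf1 A_51_P485899, and the spike-in line 0.44 for Hnrnpa3 A_51_P222088 and 0.030 and 0.40 for Hnrnpdl A_51_P476091 and A_52_P283910. The line also gave 0.55 for the polysomal change of Hnrnpul1 A_52_P243307 and 0.11 for the 6 h difference of A_52_P573366. Normexp on all spots gave non-polysomal changes of -0.046 for Srsf7 A_51_P466673, -0.31 for Hnrnpf A_52_P141161, -0.011 for Srsf2 A_52_P482355, -0.13 for Srsf4 A_52_P550780 and -0.55 for Hnrnpc A_52_P596080, differences at 0 h of -0.72 for Hnrnpul1 A_52_P243307 and -0.061 for Srsf4 A_52_P550780, and 1.45 at 6 h for Hnrnpul1 A_52_P573366.

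Each slide held 1 array of each group and shared its number with the replicate. Deviations of same-numbered arrays correlated between -0.10 and 0.42 (median 0.07, 18 pairs). Those of differently numbered arrays correlated between -0.38 and 0.21 (median -0.04, 36 pairs), so same-numbered arrays had the higher median. The main fit left the number out, and a replicate block was run as an alternative. With a replicate block the counts were those of the fit without it: 14 M-values higher and 0 lower, 23 and 1 in the polysomal change, 3 and 5 in the non-polysomal change, 38 and 46 higher in polysomes at 0 h and 6 h, and 2 called pairs.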

Other observations

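Within the TOP class the median change in the non-polysomal pool differed in sign between the lists. Over 21 probes of other listed TOP mRNAs the median change from 0 h to 6 h was -0.40, with 8 called lower and 1 higher. Over 118 probes of ribosomal protein genes it was 0.36, with 0 called lower and 11 higher (limma, counts at an adjusted p below 0.05 and over 2-fold). Of all probes 8.14% were called lower and 8.09% higher, and of those above background 10.7% and 12.4%. The 11 called higher thus lay near these shares. By the adjusted p alone 5 ribosomal protein probes fell and 70 rose, beside 19.7% and 20.5% of all probes. The 3 Hnrnpa1 probes fell by 1.18 to 1.42. Nucleophosmin (Npm1), a nucleolar chaperone of ribosome assembly, had changes of -1.26 and -1.25 on its 2 probes, differences between the pools at 0 h of 0.10 and -0.02, and M-values of 2.55 and 2.59. Eukaryotic initiation factor 4B (Eif4b) fell by 1.91 at the most, but its difference at 0 h was between -2.17 and -1.70. Whether Hnrnpa1 differs from these lists was not tested.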
